A study of Mus musculus with 6 samples.

Results

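Adipokines are the proteins through which fat cells signal to other tissues. Adiponectin and leptin are made almost wholly by adipocytes, and in the mouse resistin and adipsin are too, while other factors of this class, such as chemerin, retinol binding protein and visfatin, are also secreted by liver, stroma or immune cells. Adipocytes start to secrete most of them as preadipocytes fill with lipid, so their RNA is often used to follow adipogenesis, and white fat is known as the main source of leptin. Described here are 9 genes chosen by name: *Adipoq*, *Lep*, *Retn*, *Cfd*, *Rbp4*, *Nampt*, *Apln*, *Angptl4* and *Rarres2*. All 9 were found in the deposited table, each as a single entry, among 34465 gene symbols.

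RNA-seq was performed on primary murine cells in culture, with brown preadipocytes from the interscapular depot (BAT) and white preadipocytes from the inguinal depot (WAT) of BL6 mice killed at 3 weeks. Preadipocytes were taken from the stromal vascular fraction of collagenase-digested fat and grown to confluence, and the fat of several mice was used, so a library does not stand for an animal. Day 0 cells were confluent and not induced. Cells of days 4 and 6 had received insulin, dexamethasone, 3-isobutyl-1-methylxanthine and rosiglitazone, which activates PPARγ, for the first 48 h and serum medium alone afterwards. Each condition was sequenced as 1 library, which gives 6 libraries, and a difference between 2 libraries has no replicate check.

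Values are FPKM, fragments scaled to exon length and to library size, as Cufflinks gave them. Estimated from the steps between low values, depth was 17.45 to 21.8 M fragments in 5 libraries and 9.15 M in WAT day 0. The 14413 genes that reached 1 FPKM somewhere were tested with limma on log2(FPKM + 1), where cell type and day entered as additive factors, with Benjamini-Hochberg adjusted p. The error term holds noise together with any unlike response of BAT and WAT to differentiation, so an unlike response could not be tested. All 9 genes passed the filter. *Lep* passed it through its day 6 libraries alone, so a gene with its day 0 level throughout would not have been tested. The depot labels were checked with *Hoxc10*, a gene of posterior white depots, which was at 14.9 to 26.2 FPKM in WAT and at most 0.0879 in BAT, and with *Zic1* of brown preadipocytes, at 2.39 to 14.5 FPKM in BAT and at most 0.0852 in WAT. The brown adipocyte list as a whole was mixed on day 0. Of 9 tested genes, 3 were past 2-fold upwards in BAT and 3 downwards, against 20.7% and 13.0% of all genes. The 3 downwards were *Ucp1*, *Cidea* and *Cox8b*, with 1.49, 2.43 and 13.6 FPKM in WAT and 0, 0 and 1.88 in BAT. Day 0 differences also moved with transcript length, as given below, and this was not removed here. This list had 5 upwards on day 4 and 4 on day 6 (3.51% and 1.8% of all genes), with none downwards. Mature adipocyte markers followed the labelled stage, with 11 of 12 past the test upwards (11.3% of all genes).

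Most of the 9 genes rose with differentiation. Together they took 0.0587% of the FPKM sum in BAT day 0, 0.358% on day 4 and 0.573% on day 6, and 0.114%, 0.523% and 0.752% in WAT. By limma, 7 of the 9 were higher on days 4 and 6 than on day 0 and none was lower, against 11.3% higher and 10.6% lower, 21.9% in all, among the tested genes. The median change of the 9 was 2.36 on the log2 scale, against -0.13 over all genes. *Lep* and *Apln* did not pass. Single libraries were read by a 2-fold rule with no test. On day 4, 6 of the 9 were past it upwards from day 0 in BAT (17.1% of all genes were, and 23.2% downwards) and 5 in WAT (15.0% and 19.0%), with none downwards. On day 6 this held for 8 in BAT (16.1% of all genes upwards and 25.3% downwards) and 8 in WAT (18.5% and 14.0%), again with none downwards, and *Apln* was the exception in both. The changes on day 4 and on day 6 share the day 0 library of their cell type.

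**Figure D1:**
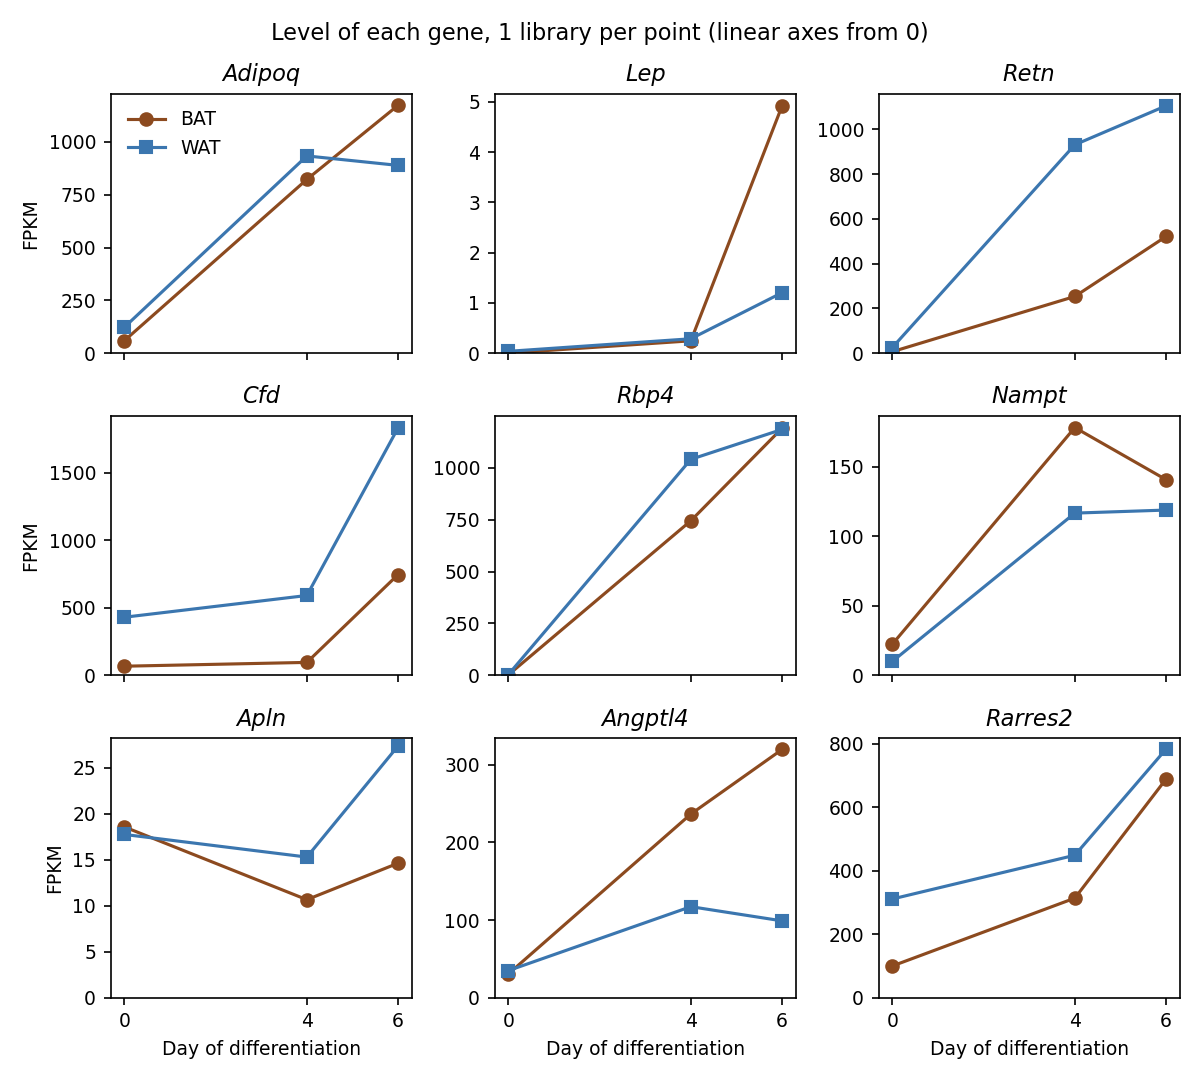
FPKM of each of the 9 genes (vertical axis, linear and starting at 0, with a scale of its own per gene) by day of differentiation, with BAT as circles and WAT as squares and 1 library per point. *Cfd* and *Retn* lie higher in WAT on each day, *Angptl4* lies higher in BAT on days 4 and 6, and *Lep* is near 0 until day 6.

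To show the sequence in front of the genes that moved most, the promoter windows of *Adipoq*, *Retn* and *Rbp4* are printed with that of *Lep*, which stayed low. Windows run from 250 bases before to 50 after the start site. They are taken from RefSeq on GRCm38.p6, another build than the mm9 of the expression values. Windows were found for 7 of the 9 genes, with 2 windows for *Rbp4*. *Angptl4* and *Rarres2* had none, so no motif was sought in front of them. Capitals mark a CCAAT box (CCAAT), a C/EBP palindrome (TTGCGCAA) or a TATA box (TATAA on the sense strand, starting 20 to 45 bases before the start site), and the other motifs were searched on both strands.
Adipoq, chr16:23146286-23146585, plus strand: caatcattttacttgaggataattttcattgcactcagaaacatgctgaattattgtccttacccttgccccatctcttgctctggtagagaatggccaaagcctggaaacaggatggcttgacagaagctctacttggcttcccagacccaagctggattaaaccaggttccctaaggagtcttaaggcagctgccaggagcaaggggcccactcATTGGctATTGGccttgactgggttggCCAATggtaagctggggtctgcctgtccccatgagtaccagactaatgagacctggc
Retn, chr8:3655520-3655819, plus strand: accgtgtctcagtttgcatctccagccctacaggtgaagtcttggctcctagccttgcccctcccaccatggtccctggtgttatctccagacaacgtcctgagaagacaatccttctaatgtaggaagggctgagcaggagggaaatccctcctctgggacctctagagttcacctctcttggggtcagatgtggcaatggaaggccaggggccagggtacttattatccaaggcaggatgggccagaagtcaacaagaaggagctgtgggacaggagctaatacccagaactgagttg
Rbp4, chr19:38124762-38125061, minus strand: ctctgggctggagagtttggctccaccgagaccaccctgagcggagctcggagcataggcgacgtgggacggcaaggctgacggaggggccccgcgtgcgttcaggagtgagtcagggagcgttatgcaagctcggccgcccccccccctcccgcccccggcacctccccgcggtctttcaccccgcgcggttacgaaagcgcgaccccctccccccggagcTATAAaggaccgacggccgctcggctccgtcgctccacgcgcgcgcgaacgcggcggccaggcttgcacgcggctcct
Lep, chr6:29059971-29060270, plus strand: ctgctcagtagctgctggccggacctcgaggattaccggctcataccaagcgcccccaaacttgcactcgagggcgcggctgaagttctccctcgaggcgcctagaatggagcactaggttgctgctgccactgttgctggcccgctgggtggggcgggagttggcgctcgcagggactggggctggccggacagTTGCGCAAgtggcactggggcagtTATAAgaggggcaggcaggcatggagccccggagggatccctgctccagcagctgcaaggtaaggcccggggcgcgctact
The *Adipoq* window held 3 CCAAT boxes, which start 34, 27 and 7 bases before the start site, and 37.4% of all 32851 windows hold at least 1. The C/EBP palindrome of *Lep* starts 55 bases before the start site and is present in 0.183% of all windows, and its TATA box starts 31 bases before. *Rbp4* has a TATA box 28 bases before its start site, a motif found in 3.89% of windows at this place. The *Retn* and *Cfd* windows held none of these motifs, and the direct repeat bound by PPAR and RXR (AGGNCA repeated after a gap of 1 base), present in 0.381% of windows, was in none of those found for the 9 genes. An E-box (CACGTG, 7.15% of windows) and a cyclic AMP element (TGACGTCA, 1.79%) were not found either. A GC box (GGGCGG) was present in 35.7% of windows and in those of *Lep*, *Nampt*, *Apln* and the printed one of *Rbp4*.
The windows of genes that rose were of both kinds in CpG content. That of *Adipoq* held 0 CpG, and those of *Retn* and *Cfd* held 2 each, against a median of 7 over all windows. The *Nampt* window held 36 and the printed *Rbp4* window 40, more than 93.8% and 96.1% of windows. *Lep* had 19 and *Apln* 15. Promoter methylation was not analysed here.

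*Rbp4* and *Retn* had the largest changes with differentiation. *Rbp4* encodes the carrier of retinol in blood (ENSMUSG00000024990, mm9 chr19:38191110-38199811, minus strand). BAT had 2.72 FPKM on day 0, 744 on day 4 and 1189 on day 6, and WAT had 4.21, 1040 and 1184. Both day 0 libraries were low, all 4 later ones were high, and on day 6 the cell types were nearly equal. The change was 7.86 on the log2 scale (standard error, SE, 0.28, limma adjusted p = 0.000779). *Retn* encodes resistin, a hormone that opposes insulin action in mice (ENSMUSG00000012705, mm9 chr8:3655770-3660110, plus strand). BAT had 6.34, 253 and 521 FPKM and WAT 24.7, 931 and 1105, a change of 5.47 (SE 0.31, limma adjusted p = 0.00108). Each WAT library was higher than the BAT library of its day, by 3.90-fold, 3.68-fold and 2.12-fold on days 0, 4 and 6.

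*Adipoq* and *Nampt* were high on day 4 and differed by less than 2-fold between days 4 and 6. *Adipoq* encodes adiponectin, which raises insulin sensitivity (ENSMUSG00000022878, mm9 chr16:23146609-23158101, plus strand). Its levels were 58.9, 823 and 1174 FPKM in BAT and 122, 934 and 889 in WAT. The groups of day 0 and of later days did not overlap, and the change was 3.46 (SE 0.41, limma adjusted p = 0.00355). Day 6 stood 0.51 above day 4 on the log2 scale in BAT and at -0.07 in WAT. *Nampt* encodes the rate-limiting enzyme of NAD salvage, which is also found outside cells as visfatin (ENSMUSG00000020572, mm9 chr12:33505200-33538234, plus strand). BAT had 22.5, 178 and 141 FPKM and WAT 10.1, 117 and 119, a change of 3.09 (SE 0.28, limma adjusted p = 0.00202). The BAT library was the higher on each day, by 2.23-fold, 1.53-fold and 1.18-fold. The lincRNA *Gdap10* overlaps *Nampt* on the same strand and was at 1.22 FPKM or less.

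*Angptl4*, *Cfd* and *Rarres2* rose by smaller amounts and with different timing. *Angptl4* encodes a secreted inhibitor of lipoprotein lipase and is a known target of PPARs (ENSMUSG00000002289, mm9 chr17:33910695-33918520, minus strand). BAT had 30.7, 236 and 319 FPKM and WAT 35.0, 117 and 99.0, a change of 2.36 (SE 0.41, limma adjusted p = 0.0112). The day 0 libraries were alike and the BAT libraries of days 4 and 6 were the highest. *Cfd* encodes adipsin, the complement protease factor D (ENSMUSG00000061780, mm9 chr10:79353598-79355401, plus strand). BAT had 68.6, 96.8 and 748 FPKM and WAT 431, 592 and 1834, a change of 1.61 (SE 0.41, limma adjusted p = 0.0365). Most of the change of *Cfd* lay between days 4 and 6, with 0.49 from day 0 to day 4 and 2.94 from day 4 to day 6 in BAT, and 0.46 and 1.63 in WAT, all on the log2 scale. *Rarres2* encodes chemerin, a chemoattractant that also acts on adipocytes (ENSMUSG00000009281, mm9 chr6:48519697-48522669, minus strand). BAT had 100 FPKM on day 0, 314 on day 4 and 689 on day 6 and WAT had 311, 449 and 783, a change of 1.57 (SE 0.40, limma adjusted p = 0.0393). The later libraries were above day 0 in each cell type, but the day 4 BAT library was at about the level of day 0 in WAT. *Lrrc61* lies on the opposite strand over *Rarres2*, at 10.5 FPKM or less, and whether the counting used strand is not given in the sources used here.
These 3 calls and that of *Adipoq* depended on the settings or on which libraries were used. Without BAT day 0 the estimate is the change in WAT alone, 1.59 for *Angptl4* and 0.93 for *Rarres2*. Without WAT day 0 it is the change in BAT alone, 3.12 and 2.20. Both genes thus rose more in BAT than in WAT, with 1 library per condition. For *Rarres2* the gap was smaller with the trend with transcript length, described below, removed. Its day 6 change was 2.77 in BAT and 1.33 in WAT before removal, and 2.03 and 1.25 after it. For *Angptl4* these were 3.34 and 1.47 before, and 3.62 and 1.34 after. The calls of *Cfd* and *Rarres2* were lost without the filter on low genes (adjusted p = 0.0950 and 0.0999), after median-ratio scaling (0.0685 and 0.0702), and without any 1 of BAT day 0, BAT day 4, BAT day 6 or WAT day 4, and that of *Rarres2* also without WAT day 6. *Adipoq* and *Angptl4* no longer passed without BAT day 4 (0.0570 and 0.0958) or WAT day 4 (0.0528 and 0.0748), while *Rbp4*, *Retn* and *Nampt* passed under all 15 alternatives.

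*Lep* and *Apln* were the 2 genes with no call. *Lep* encodes leptin, the hormone that reports fat stores to the brain (ENSMUSG00000059201, mm9 chr6:29010220-29023877, plus strand). BAT was listed at 0 on day 0 and had 0.245 FPKM on day 4 and 4.92 on day 6, while WAT had 0.0354, 0.285 and 1.20. At the estimated depths these values stand for about 14.9 and 306 fragments in BAT and about 1, 19.0 and 73.0 in WAT, so the day 6 level is well counted and the day 0 level is not. On day 6 it was 4.09-fold higher in BAT than in WAT, and by rank it stood at 7955 and 11808 among all symbols, while *Adipoq* stood at 114 and 154. The change from day 0 was 1.07 on the log2(FPKM + 1) scale, which understates it at such low levels (SE 0.43, limma adjusted p = 0.125). With a pseudocount of 0.1 it was 3.05, and it did not pass under any of the 13 alternatives that kept the gene. *Apln* encodes apelin, the ligand of a vascular receptor (ENSMUSG00000037010, mm9 chrX:45378323-45388030, minus strand). BAT had 18.6, 10.7 and 14.6 FPKM and WAT 17.7, 15.3 and 27.3, so the days overlapped, and the change was -0.17 (SE 0.29, limma adjusted p = 0.706).

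**Figure D2:**
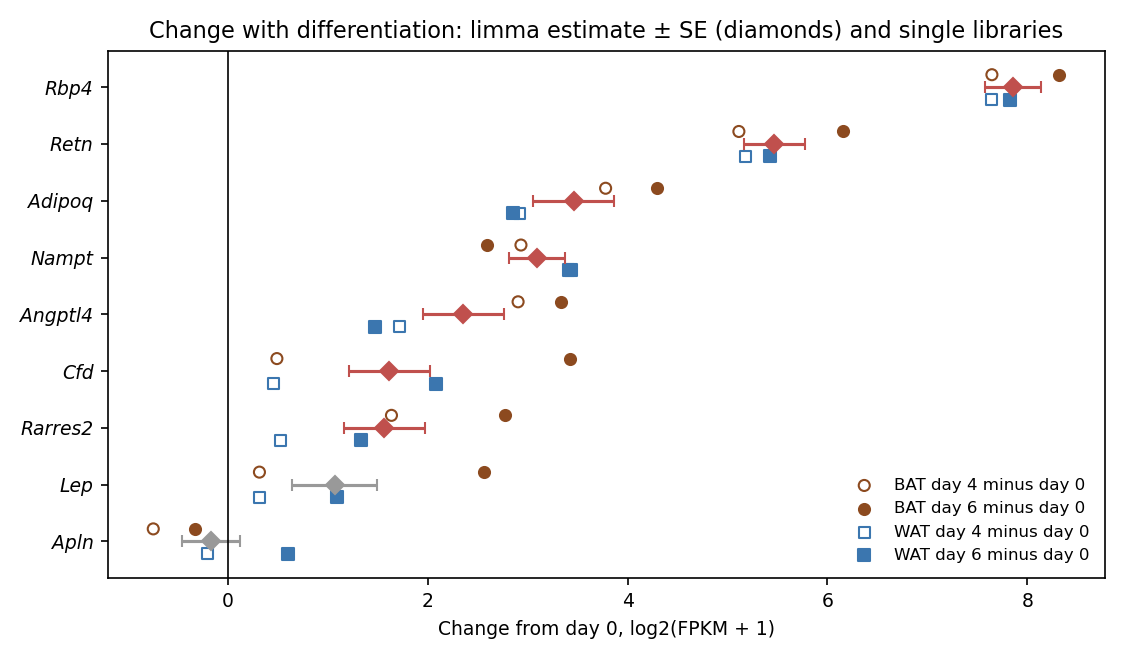
Change from day 0 in log2(FPKM + 1) for each gene, with the limma estimate for days 4 and 6 against day 0 and its standard error as diamonds (red where the adjusted p is under 0.05, grey otherwise) and single libraries as open (day 4) and filled (day 6) circles for BAT and squares for WAT. *Rbp4* lies farthest to the right at 7.86, and the day 4 and day 6 points lie far apart for *Cfd* and for *Lep* in BAT.

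Between days 4 and 6 limma called 0 of the 9 genes and 0 of all genes (0.0%), with 2 and 561 at an unadjusted p under 0.05 and a smallest adjusted p of 0.830 among the 9. The 2 were *Cfd*, 2.28 higher on day 6 (SE 0.47), and *Lep*, 1.51 higher (SE 0.49). In BAT 4 of the 9 were past 2-fold upwards from day 4 to day 6, namely *Cfd*, *Lep*, *Rarres2* and *Retn*, against 3.0% of all genes upwards and 3.46% downwards, and 2 of them, *Cfd* and *Lep*, as TPM or with the length trend removed. In WAT *Cfd* alone was, against 4.42% and 2.16% of all genes. None was 2-fold lower in either.

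The order of levels on day 6 differed between the cell types. In BAT *Rbp4* and *Adipoq* led (1189 and 1174 FPKM), followed by *Cfd*, *Rarres2*, *Retn*, *Angptl4*, *Nampt*, *Apln* and *Lep*. In WAT *Cfd* led at 1834, rank 60 among all symbols, followed by *Rbp4*, *Retn*, *Adipoq*, *Rarres2*, *Nampt*, *Angptl4*, *Apln* and *Lep*. FPKM is scaled to length, but a trend with transcript length between libraries remained, as given below. The order among genes of unlike length is therefore a description only. With 1 library per condition no spread is known for neighbours such as *Rbp4* and *Adipoq* in BAT.

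The comparison of BAT with WAT asked whether the 2 lineages differ in these factors. Limma called 0 of the 9 across the 3 days, as it did of all genes (0.0%), with 3 of the 9 and 815 of all genes (5.65%) at an unadjusted p under 0.05. These 3 were *Cfd*, lower in BAT by 2.18 on the log2 scale (SE 0.38, adjusted p = 0.467), *Retn*, at -1.59 (SE 0.29, adjusted p = 0.503), and *Nampt*, at 0.64 (SE 0.26, adjusted p = 0.674). Over the 15 alternatives the adjusted p of *Cfd* ran from 0.255 to 1 and that of *Retn* from 0.268 to 1. The median of the 9 was -0.32, against 0.10 over all genes. This test did not call the genes used to check the depot labels either, *Hoxc10* (limma adjusted p = 0.0817) and *Zic1* (0.518). The 0 calls therefore do not show that the lineages are alike in these factors.
*Cfd* and *Retn* were lower in BAT on all 3 days, with *Cfd* higher in WAT by 6.29-fold, 6.12-fold and 2.45-fold on days 0, 4 and 6. *Angptl4* went from 0.877 of the WAT level on day 0 to 2.02-fold higher in BAT on day 4 and 3.23-fold on day 6. *Rarres2* was higher in WAT by 3.11-fold, 1.43-fold and 1.14-fold, and *Apln* stood 1.87-fold higher in WAT on day 6. *Adipoq* was 2.08-fold higher in WAT on day 0 and 1.32-fold higher in BAT on day 6. *Rbp4* differed by 1.55-fold on day 0, with WAT higher, and was at 1189 and 1184 FPKM in BAT and WAT on day 6.
By the 2-fold rule on log2(FPKM + 1), which has no test, 4 of the 9 were lower and 1 higher in BAT on day 0, where 13.0% of all genes were lower and 20.7% higher. On day 4, 2 were lower and 1 higher (3.08% and 3.51% of all genes), and on day 6, 2 were lower and 2 higher (4.09% and 1.8%). *Lep* and *Angptl4* were the 2 higher on day 6, and *Cfd* and *Retn* the 2 lower. After median-ratio scaling the difference of *Retn* on day 6 was -0.93, under the 2-fold rule, and that of *Angptl4* on day 4 was 0.81. Scaling moved the median of all genes in BAT against WAT on day 0 from 0.21 to 0.00 (median ratio) or 0.80 (TPM), and there *Rbp4*, *Apln* and *Angptl4* changed sign.

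**Figure D3:**
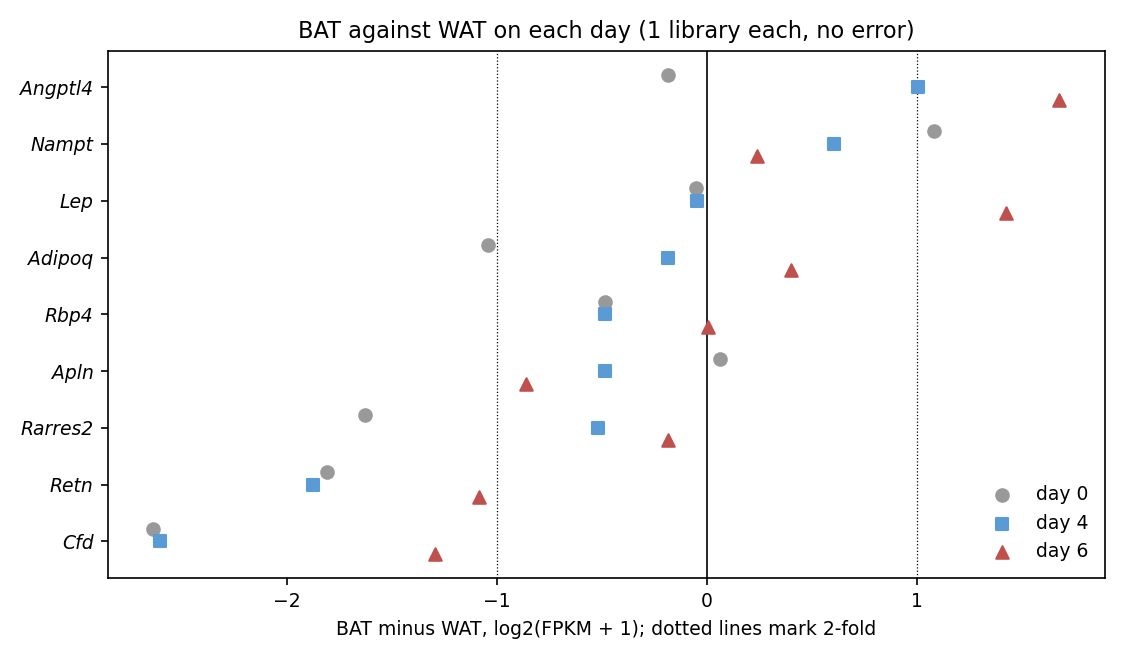
Difference of BAT from WAT in log2(FPKM + 1) on days 0 (circles), 4 (squares) and 6 (triangles) for each gene, 1 library each, with dotted lines at 2-fold. *Cfd* and *Retn* lie left of the 2-fold line on each day, and *Angptl4* moves from -0.18 on day 0 to 1.68 on day 6.

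Transcript length moved with the day 0 difference. Across 12695 protein-coding genes of the same 2 libraries, the day 0 log2 ratio of BAT to WAT had a Spearman correlation of 0.517 with length, and its median went from -0.91 in the shortest 10% of genes to 1.01 in the longest 10%. The correlation was 0.263 on day 4 and -0.06 on day 6. The longest transcripts of the genes past 2-fold downwards in BAT on day 0 have 708 (*Rarres2*), 923 (*Cfd*), 1120 (*Retn*) and 1292 bases (*Adipoq*). *Nampt*, the gene that was higher, has 4547. With the trend removed, *Cfd* stood at -1.92 and *Retn* at -1.22 on day 0, while *Rarres2* (-0.86), *Adipoq* (-0.58) and *Nampt* (0.45) were within 2-fold. On day 6 the trend at the length of *Cfd* was -0.10, and the differences of *Cfd* (-1.20), *Angptl4* (1.80) and *Lep* (1.54) were kept, with *Retn* at -0.98. Changes from day 0 in BAT also moved with length, with correlations of -0.339 on day 4 and -0.430 on day 6. In WAT they were -0.0485 and -0.0328. The BAT change of *Cfd* from day 0 to day 4 was 0.49, beside a trend of 0.54. On day 6 the BAT trend was 0.72 for *Cfd* and 0.74 for *Rarres2*. With the trend removed, limma still called 7 of the 9 for days 4 and 6 against day 0.

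**Figure D4:**
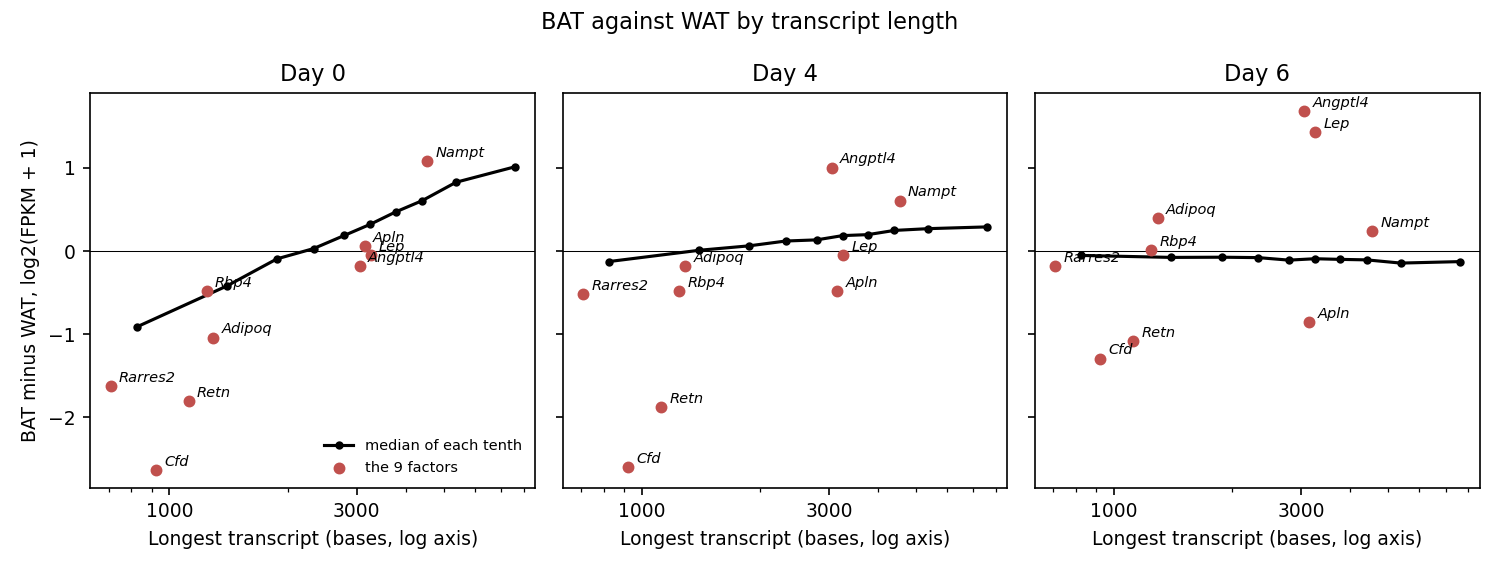
Difference of BAT from WAT in log2(FPKM + 1) on each day (panels) against the length of the longest transcript on a log axis, with the median of each 10% of 12695 protein-coding genes as a black line and the 9 genes as red points. On day 0 the line climbs from -0.91 to 1.01, and *Cfd* and *Retn* lie below it on all 3 days.

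Cell composition was followed with marker lists. The 12 mature adipocyte markers had a median difference of BAT from WAT of -0.05, 0.08 and 0.28 on days 0, 4 and 6. On day 0, 1 was past 2-fold upwards in BAT and 2 downwards (20.7% and 13.0% of all genes). Downwards were *Fabp4* (297 FPKM in BAT and 1052 in WAT) and *Slc2a4* (0.332 and 2.57), and upwards was *Dgat2* (18.9 and 6.31). The trend with transcript length was not removed from any marker list, and its part in the day 0 differences of markers was not tested. None was past it on day 4, and 1 was downwards on day 6 (4.09% of all genes). Of 10 macrophage markers, 4, 3 and 9 were at least 2-fold lower in BAT on these days, against 13.0%, 3.08% and 4.09% of all genes. Their summed level was 26.1, 58.3 and 82.4 FPKM in BAT and 98.5, 153 and 308 in WAT, with *Tyrobp* at 0 in BAT day 0. The lower levels of *Cfd* and *Retn* in BAT stood beside lower macrophage markers, and the part of these cells in the differences was not tested. Of 9 preadipocyte and stromal markers, 3 were past 2-fold upwards and none downwards in BAT on day 0 (20.7% and 13.0% of all genes), while 2 on day 4 and 4 on day 6 were past it downwards and none upwards (3.08% and 4.09% of all genes downwards). The 4 mesothelial markers summed to at most 0.379 FPKM in any library and the 5 endothelial markers to at most 18.4. In cultures measured in bulk, fewer cells of a type and less RNA per cell cannot be told apart.

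Receptors and partners of these factors were called about as often upwards as all genes. Of 14 listed, 8 were tested, and 1 was called upwards and none downwards, against 11.3% and 10.6% of all genes. The 1 was *Adipor2*, a receptor of adiponectin, at 28.5, 205 and 161 FPKM in BAT and 23.9, 190 and 113 in WAT (log2 change 2.60, SE 0.25, limma adjusted p = 0.00223). *Adipor1*, the other receptor, was at 33.8 to 58.8 FPKM in all 6 libraries. *Lepr*, the leptin receptor, was at 0.098 FPKM or less and *Aplnr*, the apelin receptor, at 0.0899 or less. *Cmklr1*, the receptor of chemerin, was at 0.903 to 1.23 FPKM in BAT and at 1.82 to 3.54 in WAT. *Stra6*, which takes up retinol from RBP4, and *Ttr*, its partner in blood, were listed at 0 in every library. *Lpl*, the lipase that ANGPTL4 inhibits, was at 765 to 1690 FPKM, with a change of 0.87 that did not pass (adjusted p = 0.197).
Among 7 genes that fold and modify adiponectin in the endoplasmic reticulum, 3 rose and 2 fell (11.3% and 10.6% of all genes). *Ero1l*, an oxidase of disulfide bonds, rose by 4.04 on the log2 scale (SE 0.40), with 48.0, 854 and 443 FPKM in BAT and 31.8, 615 and 801 in WAT on days 0, 4 and 6. *Gstk1*, also known as DsbA-L, rose by 2.16 (SE 0.34) and the lysyl hydroxylase gene *Plod1* by 1.36, while *Plod3* and *P4hb*, protein disulfide isomerase, fell, the latter by 1.41. Of the 5 calls, that of *Ero1l* alone was left without BAT day 4 or without WAT day 4, and those of *Ero1l* and *Gstk1* without BAT day 6. Without WAT day 6, *Plod1* and *P4hb* were lost, and *P4hb* was also lost without BAT day 0, without the filter and after median-ratio scaling. *Erp44*, which retains adiponectin in the secretory pathway, stood at -0.32 (adjusted p = 0.562).
Around *Nampt*, 5 of 11 genes of NAD salvage and use rose and 1 fell, where 11.3% of all genes rose and 10.6% fell. *Nmnat3* and *Nmnat1*, which make NAD from the product of NAMPT, rose, the former by 1.90. *Sirt3*, the NAD-dependent deacetylase of mitochondria, rose by 3.34 (SE 0.24), with 6.64, 89.6 and 54.5 FPKM in BAT and 3.79, 61.1 and 44.3 in WAT. *Nadk* rose by 1.18, *Nadsyn1* rose by 1.28 and *Nmnat2* fell by 1.14. Of these 6 calls, that of *Sirt3* alone was left without BAT day 4 or without WAT day 4, those of *Sirt3* and *Nmnat3* without BAT day 6, without WAT day 6 or as TPM, and those of *Sirt3*, *Nmnat3* and *Nmnat2* without the filter. *Nnmt*, which removes nicotinamide by methylation, was at 31.7 to 112 FPKM and did not pass (adjusted p = 0.445).
Of 10 complement genes, 1 rose, a share near the 11.3% of all genes, and 3 fell, against 10.6%. *C3* rose by 2.09 (SE 0.52, limma adjusted p = 0.0347), and its day 6 levels were 217 FPKM in BAT and 386 in WAT. This call was lost without the filter, as TPM, and without any 1 of BAT day 4, BAT day 6, WAT day 4 or WAT day 6. *Cfb*, the substrate of adipsin, fell by 2.23 (SE 0.31, limma adjusted p = 0.00566), with 54.1, 5.24 and 11.2 FPKM in BAT and 36.0, 5.41 and 16.5 in WAT. *C2* and *C4b* fell by 1.91 and 1.46. Of the 10, 0 were called without BAT day 4 or without WAT day 4. Without BAT day 6 or without WAT day 6 the calls of *C2* and *Cfb* alone were left, so that of *C4b* was lost. On day 6, 4 of the 10 were at least 2-fold lower in BAT than in WAT and none was higher (4.09% and 1.8% of all genes), while on day 0, 2 were lower and 4 higher (13.0% and 20.7%).

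Paralogs of these factors were called in both directions. Of 11 members of the C1q/TNF family, which share the globular domain of adiponectin, 4 rose and 6 fell (11.3% and 10.6% of all genes). Without BAT day 4 the call of *C1qb* alone was left, and without WAT day 4 those of *C1qb*, *C1qtnf2*, *C1qtnf5* and *C1qtnf7*. The 4 that rose were *Fam132a*, which encodes adipolin (2.15), and the complement genes *C1qa*, *C1qb* and *C1qc* (2.74, 3.07 and 2.85). These complement genes are known as macrophage products and rose beside 6 of the 10 macrophage markers (11.3% of all genes rose). Of these markers, *Emr1* and *Mrc1* passed the filter through later libraries alone. *C1qtnf7* fell by 3.10 and *C1qtnf2* fell by 2.91, each to 1.37 FPKM or less on day 6. *Gm6484*, listed by RefSeq as *Angptl8*, a partner of ANGPTL proteins in lipase control, rose by 3.82 (SE 0.27, limma adjusted p = 0.0011), with 2.47 FPKM on day 0 and 33.3 on day 4 for BAT, and 3.82, 65.3 and 104 over the 3 days for WAT. *Angptl2* was at 27.6 to 79.9 FPKM and did not pass (-0.46). The intracellular retinoid carrier gene *Crabp1* fell by 3.24, while *Rbp7* rose by 1.48. *Rbp7* was listed at 0 on day 0 and at 3.38 FPKM or less later, and passed the filter through its day 4 libraries alone. The calls of *Crabp1* and *Rbp7* were both lost without WAT day 4, and that of *Rbp7* also without BAT day 4, BAT day 6 or WAT day 6. Of the genes related to *Retn*, *Retnlb* and *Retnlg* were listed at 0 throughout and *Retnla* reached 2.07 FPKM in WAT day 4.
Of 33 other secreted factors of fat, 5 rose and 11 fell (11.3% and 10.6% of all genes), and of these 16 calls 6 were made without BAT day 4 and 7 without WAT day 4, among them *Orm1*, *Saa3*, *Wisp2* and *Ccl2* in both. *Orm1*, an acute-phase protein, rose by 5.18 (SE 0.53), with BAT at 0.102 FPKM on day 0 and 78.0 on day 6 and WAT at a listed 0 and 82.5. It passed the filter through its day 4 and day 6 libraries alone, so with its day 0 level throughout it would not have been tested. The others that rose were *Agt*, *Nrg4*, *Lcn2* and *Hp*. *Saa3* fell by 4.83 (SE 0.55), with BAT at 2094 FPKM on day 0 and 27.9 on day 6 and WAT at 1306 and 121. *Wisp2* fell by 4.14 and the chemokine gene *Ccl2* fell by 3.77. In all 7 lists limma called 0 genes between BAT and WAT.

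**Figure D5:**
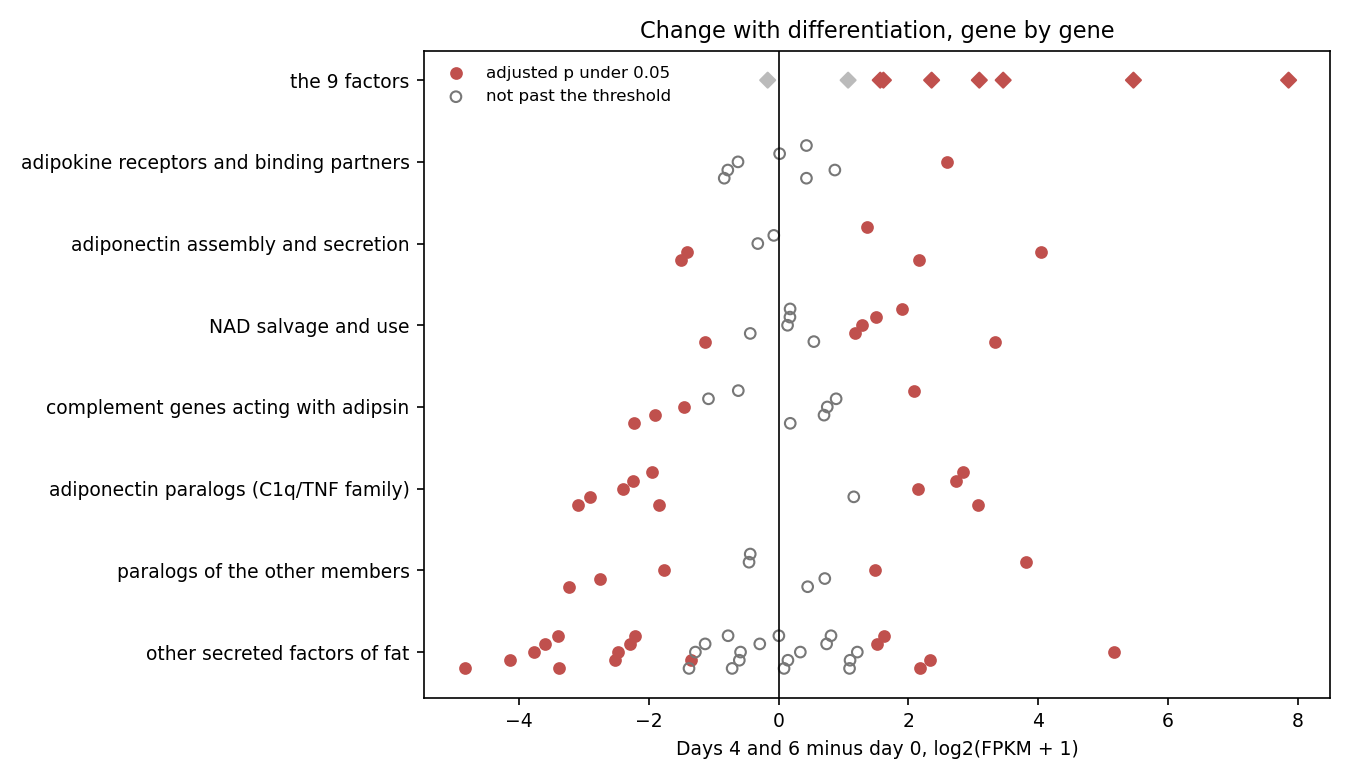
Change on days 4 and 6 against day 0 in log2(FPKM + 1) for each tested gene (points, spread vertically for sight) of the 9 factors and of 7 related lists, with red for an adjusted p under 0.05 and open or grey symbols otherwise. Of the 9 factors 7 lie to the right in red, while the lists hold red points on both sides or, for receptors and partners, a single one.

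Over the 6 libraries, the genes whose pattern was most like each factor were taken from 5977 protein-coding genes (5978 for *Lep*) that reached 10 FPKM and varied at least 2-fold, by Pearson correlation of log2(FPKM + 1). Libraries share the step from day 0 to the later days, so high values are common. The nearest to *Adipoq* were *9430016H08Rik*, *D10Jhu81e* and *Ndufb3* (0.999 to 0.998), and to *Rbp4* were *1110032A03Rik*, *Brp44l* and *Aldoa* (0.999 for each). *Nampt* was nearest to *Phospho1* (0.999), *Ucp2* and *Hsd11b1*, and *Retn* to *Cox4i2* (0.996), *Tst* and *Mc2r*. *Angptl4* was nearest to *8430408G22Rik* (0.994), with 0.520, 70.6 and 133 FPKM in BAT and 1.44, 14.2 and 18.2 in WAT, and to *Adck3* and *Dnajc24*. *Rarres2* was nearest to *Mgmt* (0.999), *Mif* and *Pcif1*, and *Cfd* to *Pold4* (0.993), *Dym* and *Srp9*. *Lep* was nearest to *Cbx8* (0.957), *Rpp38* and *Mb*, and *Apln* to *Ogn* (0.977), *B2m* and *Ifit3*. Among the 9, *Adipoq* and *Rbp4* were the most alike (0.987), and *Cfd* had 0.264 with *Nampt* and 0.254 with *Angptl4*.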

How the data were processed

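The authors sequenced total RNA from directional paired-end libraries, mapped them against mm9 using TopHat 2.0.11, and deposited gene values in FPKM from Cufflinks 2.1.1. The deposited table has 37841 entries, columns named SUB were taken as WAT, and where a symbol was repeated the entry of highest mean was kept (3376 left out). FPKM is not a count, so no count model was used. Genes that reached 1 FPKM in any library entered limma 3.58.1 (R 4.3.3) as log2(FPKM + 1). Cell type and day were additive factors, the variance prior followed mean expression with 2 residual and 4.26 prior degrees of freedom, and the Benjamini-Hochberg threshold was 0.05. The limma step was tested on simulated data. Pairs of single libraries were read by a 2-fold rule with no test. Depth was estimated from single-transcript genes, of which 79.2% to 86.4% of low values were whole fragments within a tolerance of 0.1. The depth was chosen to bring these same values near whole numbers, so this share is no independent check of it. Coordinates are those of GENCODE M1 on mm9 (97.9% of IDs matched). Named are the 9 factors, their direct partners and, per related list, up to 4 genes past the test with at least 10 FPKM, with a few others of the lists named after their values were seen. The members and lists were chosen with earlier results of these data known. Alternatives were each library left out, rules of 1.5-fold and 4-fold, TPM or median-ratio scaling, a pseudocount of 0.1, a constant variance prior, summed entries per symbol, and either no filter or a minimum mean of 5 FPKM. Genes with no exact 0 and removal of a length trend (lowess, span 0.3) were added after the data were seen. Python 3.11.15 with pandas 2.3.3 and numpy 2.4.6 was used for the rest. The methylation data were not analysed here.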

Additional observations from a re-analysis of the deposited data

How the results depend on the processing

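With 1 library per condition no replicate spread is known, and the depth of WAT day 0 limits its low values. No paired analysis was possible, since each condition has 1 library and the titles give no replicate number to pair by. BAT and WAT were set against each other within day by the term for day in the model. Of the 9 factors, 7 were called for days 4 and 6 against day 0, and 5 without the filter or after median-ratio scaling. With single libraries left out, which also leaves fewer residual degrees of freedom, 3 to 7 were called, with the 3 reached without BAT day 4 and without WAT day 4 (*Nampt*, *Rbp4* and *Retn*), and the number over all genes ran from 439 to 4738 (3153 with all libraries, 1834 without the filter). Between days 4 and 6, 0 to 8 genes were called with a library left out, 2 with a pseudocount of 0.1 and 1 with the length trend removed. Between BAT and WAT these were 0 to 3 with a library left out and 2 with the length trend removed, and none of the 9 was among them in either comparison.
By the 4-fold rule the number of the 9 past it in BAT against WAT was 1 on day 0, 1 on day 4 and 0 on day 6, in BAT day 6 against day 4 it was 2, in WAT day 6 against day 0 it was 5 and in WAT day 6 against day 4 it was 0 (4 by the 1.5-fold rule and 2 with a pseudocount of 0.1). BAT against WAT on day 0 had 3 as TPM and 2 with the length trend removed, and BAT day 6 against day 4 had 2 with either. The shares of all genes past these other rules were not taken. These counts therefore show only how the 2-fold counts move with the rule, not whether they are unusual. No called difference of the 9 changed sign. Of the related lists, the C1q/TNF family had 1 to 11 genes called over the alternatives (10 in the main setting), complement 0 to 6 (4), other secreted factors 6 to 21 (16), NAD salvage 1 to 6 (6), adiponectin assembly 1 to 5 (5), paralogs of the other factors 1 to 7 (5) and receptors 1 to 3 (1). The number called over all genes moved too, as given above. The cause of these shifts was not tested.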
